A study of Drosophila melanogaster with 4 samples.

Results

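The 706 regions called as Fruitless (Fru) peaks on the Drosophila melanogaster X chromosome were chosen as every entry of the authors' peak list whose sequence name is X, with no filter on width or score. They make up 12.7% of the 5538 peaks of the list. The list comes from a chromatin immunoprecipitation experiment with sequencing (ChIP-seq) on whole embryos, with 2 libraries of DNA recovered with a rabbit polyclonal anti-Fru antibody and 2 libraries of input DNA, which is chromatin DNA sequenced without the antibody. All 4 libraries came from the strain y; cn bw sp, whose genotype in the labels has y[1] and oc[R3.2] on the X. Its autosomal alleles are cn[1], bw[1] and sp[1], together with Gr22b[1], CG33964[R4.2] and Gr22d[1], and further Rh6[1], GstD5[1], LysC[1], MstProx[1] and lab[R4.2]. The stage label reads 0 to 8 h, while the collection protocol in the labels speaks of an 8 to 16 h laying, and this difference could not be settled. The embryos were cross-linked in 1.8% formaldehyde for 15 min. Their sex is given as unknown, and all cells of the embryo were pooled, so a peak cannot be tied to a tissue or a sex.

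Fru is a transcription factor with a BTB domain, through which such proteins associate with each other, and zinc fingers, which bind DNA. The gene is best known for male-specific products that shape the nerve cells of courtship. It also makes products common to both sexes, which have been described in the embryonic nervous system. The X is present in different numbers in female and male flies, and males raise transcription from their only copy through a process called dosage compensation.

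The list gave 1 first base, 1 last base and 1 score per peak, and no value per library. Read depth and agreement between replicates are therefore unknown, no difference was tested and no p-value is given. The score is the authors' own value of unstated scale, and it serves only to rank peaks within the list. Positions are in Release 5 of the genome, counted from 1. No peak was assigned to a gene and no sequence was read, since the gene table used here is of Release 6.

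Fru peaks were spread over a long span of the arm but occupied little of that span. The first lay from 412622 to 412822 and the last from 21235032 to 21235248, a span of 20.8 Mb. The first was 201 bp wide with a score of 9.32, and the last was 217 bp wide with a score of 8.43. Peaks covered 354 kb, or 1.70% of the span, at a mean of 33.9 peaks per Mb. No peaks overlapped, and the closest neighbours were 44 bp apart.

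The number of peaks changed several-fold from one part of the arm to another. Bins of 1 Mb were laid from base 1 up to the last peak. Of these 22 bins, the last is only partly spanned by peaks. The count per bin ran from 12 to 101 with a median of 30.5. The densest bin, from 19000001 to 20000000, held 101 peaks, 14.3% of the total and 3.31 times the median bin. Its peaks covered 57.1 kb, 16.1% of all bases in X peaks. Next came the bin from 1000001 to 2000000 with 60 peaks and the bin from 6000001 to 7000000 with 47. The sparsest were the bin from 14000001 to 15000000 and the last bin, which begins at 21000001, with 12 peaks each. When the span was cut into 5 equal segments of 4.16 Mb, they held 149, 154, 107, 100 and 196 peaks from the first to the last. The segments with 107 and 100 peaks were the sparsest, and the last was the densest.

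The densest bin did not stand out in median score or median width, although it held the widest X peak, of 4980 bp. The median score of its 101 peaks was 11.55, against 11.22 for all X peaks, and over the bins the medians ran from 9.63 to 13.085. The highest median belonged to the bin from 10000001 to 11000000, which held only 22 peaks. The median width of the 101 peaks was 343 bp, and the medians of the bins ran from 273.5 to 437.5 bp. Across the 22 bins Spearman's rho was 0.19 between peak number and median score, and 0.31 between peak number and median width. These bins share the same libraries and peak calling, and neighbouring bins are not independent.

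**Figure D1:**
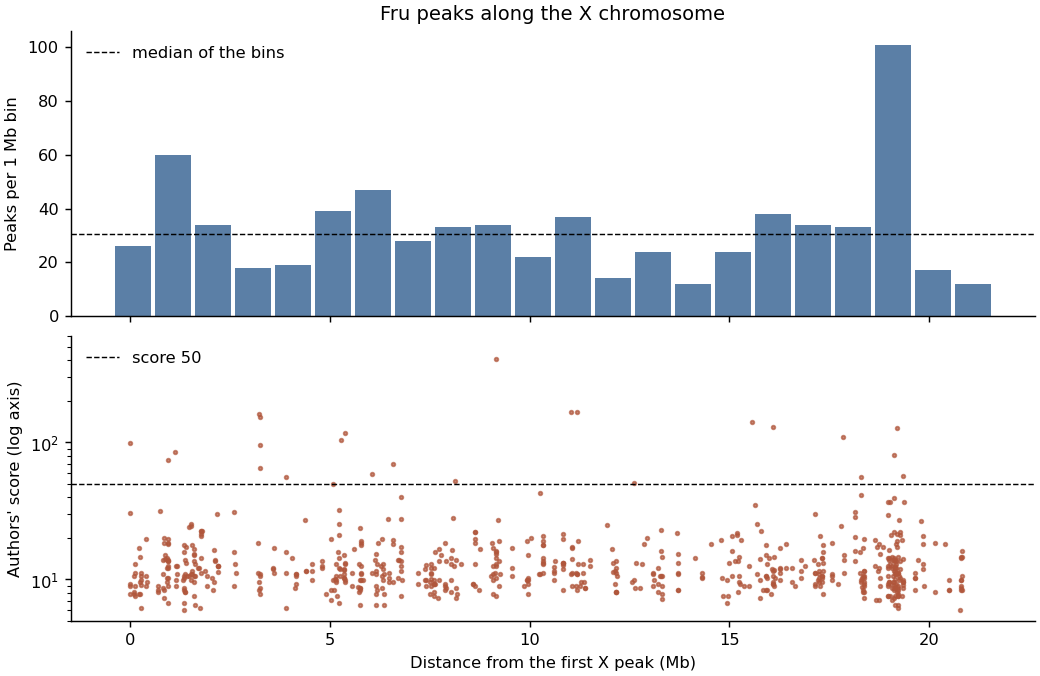
Fru peaks along the X chromosome, with distance from the first X peak (Mb) on the x axis. The upper panel gives the number of peaks in each 1 Mb bin as bars, with a dashed line at the median of 30.5, and the lower panel gives the authors' score of each of the 706 peaks as a point on a log axis, with a dashed line at 50; the bin with 101 peaks stands above the next, with 60, while the highest point, 406.38, lies in a bin of 34 peaks.

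Most X peaks were narrow. The median width was 340.5 bp, with quartiles of 259.25 and 581 bp, and the 5th and 95th percentiles were 204.25 and 1186.75 bp. Peaks of under 500 bp numbered 484, or 68.6%, yet they made up 40.9% of the covered bases. A further 159 peaks were from 500 to under 1000 bp wide, 53 were from there to under 2000 bp, and 10 were 2000 bp or wider. These 10 peaks, 1.42% of the total, held 9.13% of the covered bases.

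The narrow end of the distribution stopped at exactly 201 bp. This width was shared by 27 peaks, whereas the next most frequent width was shared by 7. It was also the smallest width anywhere in the 5538 peaks. The 27 peaks scored from 5.99 to 13.97 with a median of 8.43, and 14 of them lay within 1000 bp of another peak. The 5 narrowest X peaks therefore cannot be singled out, since all 27 tie.

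Scores were also bunched at low values. The median was 11.22, with quartiles of 9.32 and 14.7 and a range of 5.99 to 406.38. The 706 peaks used only 127 different scores. Of these, 11 values were each shared by at least 20 peaks and together accounted for 297 peaks, or 42.1%. The most frequent, 9.94, occurred 35 times. A score over 20 was reached by 84 peaks, over 50 by 24 and over 100 by 11.

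Wide peaks had higher scores, with exceptions in both directions. Spearman's rho between score and width was 0.66 over the 706 peaks, which share libraries and peak calling and are not independent. Median scores were 10.25 for peaks under 500 bp, 13.97 from 500 to under 1000 bp, 21.44 from 1000 to under 2000 bp and 107.4 for 2000 bp or more. Of the 63 peaks of at least 1000 bp, 25 scored under 20. The lowest of them, from 11576209 to 11577611, was 1403 bp wide and scored 11.22, the same as the median X peak. In the other direction, the highest score of a peak under 500 bp was 49.71, for a 404 bp peak from 5490582 to 5490985. Of the 10 highest-scoring peaks, 5 were also among the 10 widest.

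**Figure D2:**
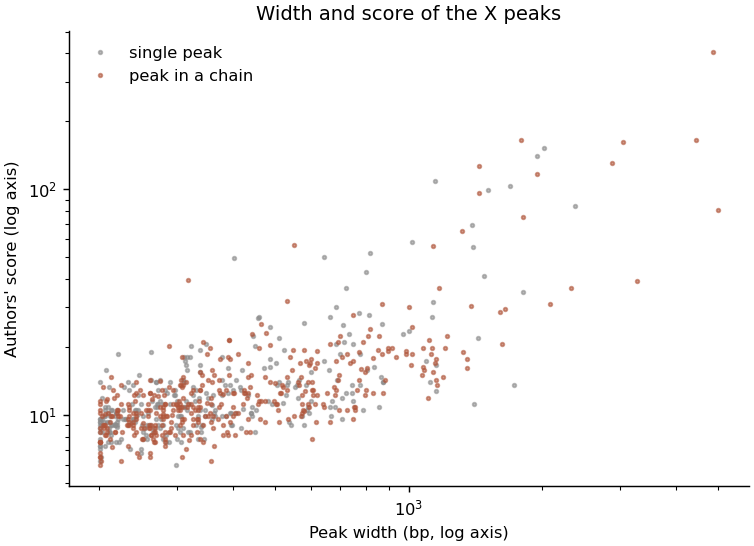
Width (bp, x axis) and authors' score (y axis) of the 706 X peaks, both on log axes, with peaks that have a neighbour within 1000 bp in red and single peaks in grey. Points crowd at the left edge, 201 bp, and below a score of 20, and the 10 peaks of 2000 bp or more run from 31.04 to 406.38.

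The 10 highest-scoring peaks lay in 8 of the 22 bins. The first, from 9576519 to 9581387, was 4869 bp wide and scored 406.38, which was 2.45 times the second value. The second value, 166.08, was shared by 2 peaks, one from 11457348 to 11459137 and one from 11606969 to 11611424. These were 1790 and 4456 bp wide. Peaks from 3633833 to 3636874 and from 3673185 to 3675206 followed with 161.88 and 152.76. Both belong to the same 64 kb stretch, described below.

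The remaining 5 lay in 5 different bins. A 1949 bp peak from 15987714 to 15989662 scored 140.58, and a 2871 bp peak from 16491236 to 16494106 scored 130.26. In the densest bin a 1441 bp peak from 19590791 to 19592231 scored 127.14. A 1947 bp peak from 5792459 to 5794405 scored 117.14, and a 1147 bp peak from 18265033 to 18266179 scored 108.87. Just under these stood a peak from 5686692 to 5688379 with 103.71 and one from 416322 to 417827 with 99.35. The second of these began 3499 bp after the first peak of the arm.

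The widest X peak was not among the 10 of highest score. It ran from 19525276 to 19530255, was 4980 bp wide and scored 81.15. Its neighbour 789 bp further along, from 19531045 to 19534326, was 3282 bp wide and scored 39.19, so these 2 wide peaks stood side by side. The other members of the 10 widest that scored under 100 were a 2376 bp peak from 1549693 to 1552068 with 84.59, a 2328 bp peak from 19386519 to 19388846 with 36.57, and a 2085 bp peak from 18544837 to 18546921 with 31.04. Of the 5 peaks in this set that scored under 100, 3 lay in the densest bin.

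Spacing between neighbours spanned 4 orders of magnitude. The median gap, counted as the bases between the end of one peak and the start of the next, was 3175 bp over 705 gaps, with quartiles of 428 and 19676 bp. The mean, 29034 bp, was 9.14 times the median. Of the gaps, 60 were under 100 bp and 194 were from 100 to under 1000 bp. A further 211 were from 1000 to under 10000 bp, 181 from there to under 100 kb, and 59 were longer. The 254 gaps under 1000 bp were 36.0% of all gaps, while the 59 gaps over 100 kb were 8.37% of the gaps and took up 12.9 Mb, or 61.9% of the span.

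**Figure D3:**
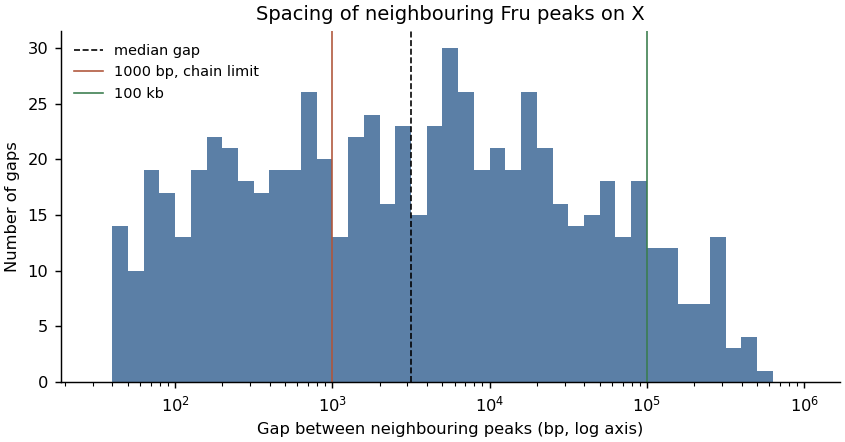
Gaps between neighbouring X peaks (bp, log axis, x axis) and the number of gaps in each class (y axis). The dashed line marks the median of 3175 bp and the solid lines mark 1000 bp and 100 kb; the gaps run from 44 to 550316 bp and are spread broadly over that range.

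The 5 longest empty stretches between neighbouring peaks were each over 400 kb. The longest ran from 3062835 to 3613150 and was 550 kb long. The others were 442 kb from 11916113 to 12357705, 411 kb from 14136353 to 14547753, 408 kb from 7215017 to 7623033, and 403 kb from 2626427 to 3028962. Gaps over 300 kb numbered 10 and together took up 3.89 Mb, or 18.7% of the span. Another 413 kb lay before the first peak, and its mappability and that of the gaps were not examined. The sequence beyond the last peak was not measured. The peaks that flank these 10 gaps had scores from 7.86 to 24.94 and a median of 12.395.

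Seen at a finer scale, 235 of the 425 windows of 50 kb held no peak. That is 55.3%, including 8 windows before the first peak. The windows were laid from base 1 up to the last peak, so sequence beyond it was not counted. A further 57 windows held 1 peak. At the other extreme, 11 windows held 10 or more peaks each and together contained 141 peaks, so that 2.59% of the windows held 20.0% of the peaks. The 42 fullest windows, 9.88% of the total, were enough to hold 50% of the peaks. The variance of the counts was 4.76 times their mean of 1.66.

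The densest 50 kb window, from 19500001 to 19550000, held 19 peaks that covered 15.3 kb, with a median score of 10.07 and a highest of 81.15. A window towards the low-coordinate end, from 1350001 to 1400000, held 16 peaks with a median score of 13.095 and a highest of 75.12. Windows from 6150001 to 6200000 and from 19550001 to 19600000 held 15 peaks each, with highest scores of 23.6 and 127.14. Those from 18750001 to 18800000 and from 19600001 to 19650000 held 13 each, with highest scores of 19.77 and 14.7. Of these 6 windows, 3 contained a peak over 50 and 3 did not.

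Peaks that stood close together formed short chains. When neighbours less than 1000 bp apart were joined, the 706 peaks became 452 regions, of which 297 were single peaks and 155 were chains. The chains contained 409 peaks, or 57.9%. They comprised 97 chains of 2, 39 of 3, 7 of 4, 6 of 5, 3 of 6, 2 of 7 and 1 of 8. The median chain was 1503 bp long, and the longest was 11326 bp.

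Chained and single peaks had similar median widths and scores. The median width was 357 bp in chains (quartiles 266 and 604 bp, n = 409) and 325 bp for single peaks (quartiles 245 and 533 bp, n = 297). Median scores were 11.34 (quartiles 9.63 and 15.07) and 11.22 (quartiles 9.32 and 14.33). The quartile ranges overlapped almost entirely. The chained share nevertheless rose with width. It was 55.8% of peaks under 500 bp, 60.4% from 500 to under 1000 bp and 66.0% from 1000 to under 2000 bp. Of the 10 peaks of 2000 bp or more, 8 were chained (80%). Whether chaining and width are related was not tested. In the 39 chains of 3, the highest-scoring peak was the middle one in 20, the first in 9 and the last in 10. Over all 58 chains of 3 or more, the highest-scoring peak was at either end in 31.

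The share of peaks in chains varied along the arm. It was 72.3% in the densest bin, with 73 of 101 peaks, and 75% in the bin from 1000001 to 2000000, with 45 of 60. In the bin from 15000001 to 16000000, by contrast, 2 of 24 peaks were chained, or 8.33%. By segment of 4.16 Mb it was 61.1%, 54.5%, 65.4%, 36.0% and 65.3% from the first to the last. The segment with 36.0% had the longest median gap, 9520.5 bp, against 1838 bp in the last. Chains are defined by gaps, so these are not separate observations.

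Of the 6 chains with 6 or more peaks, 1 held the highest score of the arm and the others had no peak over 50. The longest in members ran from 1368510 to 1374353 and held 8 peaks with scores of 6.76 to 19.77. A chain of 7 from 10360172 to 10365133 scored 7.86 to 18.95, and another from 19542042 to 19547063 scored 6.5 to 12.57. Chains of 6 lay from 12581877 to 12586510, with a highest score of 13.62, and from 19371029 to 19376639, with a highest score of 29.59.

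The remaining chain of 6, from 9572047 to 9581387, ended in the peak of score 406.38. The peaks before it scored 14.33, 12.91, 12.57, 16.19 and 15.82 in order, and the last of them was 455 bp away from it. All these low neighbours lay on the side of lower coordinates. On the other side no peak followed for 52805 bp. The chain was 9341 bp long, and 88.6% of it lay within peaks.

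High-scoring peaks did not stand out by the number of their neighbours. Of the 24 peaks over 50, 13 (54.2%) had a neighbour within 1000 bp, compared with 396 of 682 (58.1%) among the rest. The median number of other peak centres within 50 kb was 8 for the 24 and 7 for the rest, with ranges of 0 to 32 and 0 to 33. Within 10 kb it was 2.5 and 3, and 5 of the 24 had none, against 103 of the 682. The peaks next to them resembled X peaks in general. The 28 adjacent peaks within 10 kb that did not themselves score over 50 had a median score of 10.89 (range 6.24 to 39.19). The median of all 706 scores was 11.22, nearly the same. Widths were close as well, with medians of 337.5 bp in these 28 and 340.5 bp in the 706. Among the 24, 1 case of direct neighbours occurred, the peaks from 1377454 to 1379266 (75.12) and from 1549693 to 1552068 (84.59), and these were 170426 bp apart.

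Peaks far from any other were few. Those at least 50 kb from both neighbours numbered 20, or 2.83%, with a median width of 318 bp and a median score of 14.33. Their scores ran from 7.86 to 140.58. The highest was the 1949 bp peak from 15987714 to 15989662, named above, which had 88158 bp of empty sequence before it and 51859 bp after it. The peak that followed, from 16041522 to 16043331, was isolated too, at 1810 bp wide with a score of 35.13. Only 3 peaks had more than 100 kb free on both sides, namely those from 12357706 to 12358416 (score 24.94), from 14547754 to 14548015 (14.33) and from 14956804 to 14957181 (18.14).

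The gaps over 100 kb divided the X peaks into 60 islands. Together these islands took up 7.93 Mb, or 38.1% of the span. The median island held 7.5 peaks and was 95.03 kb long. Peaks over 50 occurred in 16 of the 60.

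The largest island in number, from 19371029 to 19781677, held 89 peaks in 411 kb, or 2.17 per 10 kb. It contained 69 chained peaks and 3 peaks over 50, and its median score was 11.22. It was bounded by gaps of 109 and 274.5 kb. Its core was also the stretch of under 100 kb with the most peaks on the arm: 34 peaks lay between 19508223 and 19599360, where 27.4% of the bases were within peaks and the median gap was 682 bp. In this core 25 of 34 peaks were chained, the median width was 413 bp and 2 peaks scored over 50.

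The island with the most peaks over 50 was much smaller and stood between 2 long empty stretches. It ran from 3613151 to 3676920 (63.8 kb), after the 550 kb gap and before one of 322 kb, and held 12 peaks. Their scores were 11.22, 18.54, 161.88, 8.43, 9.63, 96.48, 8.72, 65.43, 10.57, 10.89, 152.76 and 7.86 in order. The 4 peaks over 50 were 3042, 1438, 1320 and 2022 bp wide, and the 8 others ranged from 201 to 388 bp, so the widths of the high and low peaks did not overlap. In this island each pair of high peaks was separated by at least 1 low peak. It was singled out after its values had been seen.

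The next 3 islands by number held fewer peaks per 10 kb. The second in number, from 1755473 to 2343302, held 48 peaks in 588 kb, or 0.817 per 10 kb, with a highest score of 25.54 and none over 50. The third, from 5453156 to 5802758, held 33 peaks in 349.6 kb, or 0.944 per 10 kb, and 2 of them scored over 50. Next came an island from 15891347 to 16546866 with 32 peaks in 656 kb, or 0.488 per 10 kb, which included the peaks of 140.58 and 130.26. The last island ran from 21189333 to 21235248 and held 12 peaks in 45.9 kb after a gap of 282 kb. Its highest score was 16.19 and its median 9.94. It made up the whole content of the last bin.

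**Figure D4:**
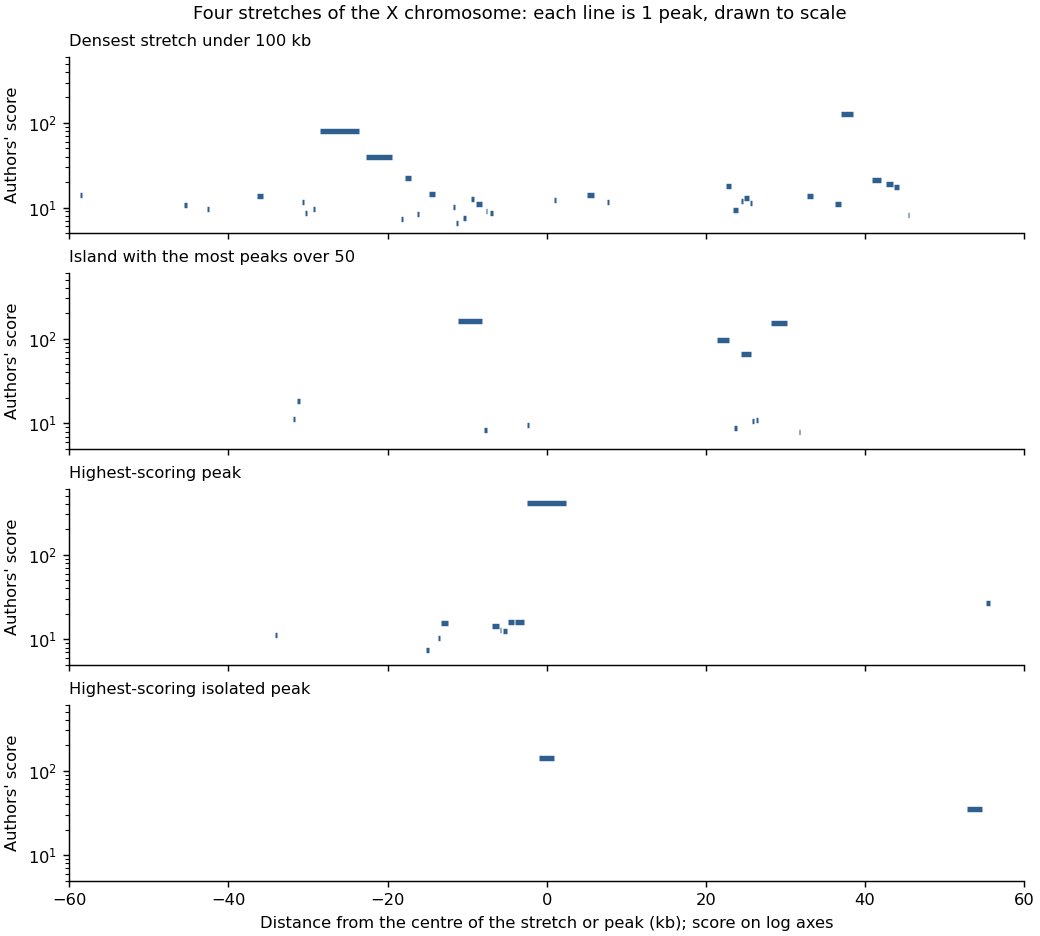
Peaks in 4 stretches of X, with distance from the centre of the stretch or peak (kb) on the x axis and the authors' score on log y axes; each line is 1 peak drawn from its first to its last base. From the top are the 34-peak core of the island with the most peaks and the 12-peak island with 4 peaks over 50. Below them are the peak of 406.38 with its low neighbours on one side, and the isolated peak of 140.58.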

How the data were processed

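The authors deposited 1 peak list for 4 libraries (2 ChIP, 2 input), with no value per library. Peaks were called with MACS and placed on FlyBase Release 5, per the file headers. The submitters' processing notes list CASAVA (1.7.0.2 and 1.7.0.3) and the build BDGP5, with MACS2 and BWA. Which libraries entered the call, pooling, thresholds and filters are not stated in those sources. The other deposited columns hold the start and end of each peak (bp); the score deposited by the authors has no stated scale.

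All X entries were kept. Width, gaps, bins of 1 Mb, windows of 50 kb (by peak centre) and chains (gaps under 1000 bp) were computed with matplotlib 3.10.9, pandas 2.3.3, numpy 2.4.6 and scipy 1.17.1 under Python 3.11.15, and the functions were tested on simulated data. Named peaks are the 10 highest-scoring and 10 widest, the first and last, and chains of 6 or more. The 5 narrowest were planned too, but ties in width left no such set. Named stretches are the 5 densest windows with ties, the 5 longest gaps, and the densest and sparsest bins. Other peaks, the score limits of 20, 50 and 100, isolated peaks, islands and the window sliding over 100 kb were picked with the values in view. The members and lists were chosen with earlier results of these data known. Peaks are neither replicates nor independent, so nothing was tested. The alternatives tried were stricter scores, merging, other joining distances, grids and spacing measures, and omission of the densest bin.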

Additional observations from a re-analysis of the deposited data

How the results depend on the processing

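Settings were compared with the 95% binomial interval of the reported value (for medians the order-statistic interval, for rho Fisher's), or within 1.5 times for the peak number; these intervals treat peaks as independent. With the 50% of peaks scoring highest (ties kept), 375 peaks remained, the median width was 503 bp, the median gap 11032 bp, 39.7% of peaks were chained, 62.8% of windows were empty and rho was 0.57. With the highest 25% these were 183 peaks, 721 bp, 39619 bp, 26.8%, 73.9% and 0.49. Fewer peaks lengthen gaps, add empty windows and lower the chained share by construction. Selecting on score also raises the median width, since wide peaks had higher scores. It narrows the range of scores as well, which can lower rho. Merging peaks closer than 1000 bp gave 452 peaks, a median width of 548 bp and a median gap of 11771 bp. The chained share was 45.5% with joining under 500 bp and 66.7% under 2000 bp. The other 10 comparisons stayed within these limits, among them all 6 results without the densest bin. That bin, from 19000001 to 20000000, was the densest in all 4 peak sets, with 101 of all peaks, 54 of the top 50%, 26 of the top 25% and 51 after merging. No paired analysis was possible because peaks come without any measurement for each library; leaving out a replicate was not run for the same reason. Depth is unknown, so an empty stretch cannot be told apart from one too shallow to be called.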
